A study of Mus musculus with 3 samples.

Results

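The Fstl1 Inhba alveolar macrophages described here are lung macrophages that, after lipopolysaccharide, carried RNA of 1 or more of Fstl1, Inhba, Palld and Creb3l1. They were chosen cell by cell. A barcode needed at least 500 genes, at least 1000 unique molecular identifiers (UMIs, each standing for 1 captured RNA molecule) and at most 15% mitochondrial UMIs. It also needed a UMI for at least 4 of 9 alveolar macrophage markers, fewer than 3 of 7 cell cycle genes, and at least 2 summed UMIs of the 4 genes. This gave 4968 cells, 2863 in the LPS library and 2105 in the LPS with Reg3g library, of 31681 cells that passed the quality filter in the series. The remaining non-cycling alveolar macrophages of the same libraries, 3091 and 2497 cells, served for comparison.

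The series compared wild-type C57BL/6 mice 24 h after 1 instillation into the trachea. One group received 50 µL of PBS, the second LPS (bacterial lipopolysaccharide) at 4 mg/kg, and the third the same LPS dose together with 6 µg of the antimicrobial lectin Reg3g; the labels used here give no age. Lungs were digested, and live CD45+ Ly6G- F4/80+ cells positive for CD11b or CD11c were sorted for droplet sequencing of RNA 3′ ends. Each group is a single library of cells pooled from 3 mice, so differences between groups have no replicate check, no p-value is given, and 95% intervals cover counting error only. The 3 libraries held 52354207 (PBS), 70474636 (LPS) and 60942042 (LPS with Reg3g) UMIs. Between 28 and 37 barcodes were shared by a pair of libraries, and 0 of these were Fstl1 Inhba cells in both.

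Alveolar macrophages live on the air side of the lung, clear inhaled particles and surfactant, and are among the first cells to meet inhaled bacterial products. Inhba encodes the subunit of activin A, a secreted ligand of the TGF-beta family, and Fstl1 encodes a secreted glycoprotein related to the activin-binding protein follistatin. Palld (palladin) organises actin filaments, and Creb3l1 is a membrane-bound transcription factor released from the endoplasmic reticulum and Golgi to act on secretory and matrix genes.

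The identity of the cells was first set against markers. Inhba lies at chr13:16011851-16031621 and Fstl1 at chr16:37776873-37836514 (mm10, both on the plus strand, both protein-coding). The 9 alveolar macrophage markers summed to 9604 counts per 1000000 UMIs (CPM) in the Fstl1 Inhba cells and 9221 CPM in the other alveolar macrophages with LPS, and to 9279 and 8994 CPM with Reg3g. All 9 were detected in each of these groups, although the rule itself asked for 4 of them. Since fibroblasts also express Fstl1, fibroblast markers were counted. Of 10 markers, 10 were detected in the cells with LPS and 7 with Reg3g, where Col1a2, Lum and Pdgfra stood at 0. Their summed level was 207 CPM in the Fstl1 Inhba cells against 199 CPM in the other alveolar macrophages with LPS, and 192 against 179 CPM with Reg3g. Gsn (gelsolin), which macrophages express too, made up 197 and 195 CPM of the LPS values and 185 and 177 CPM of the Reg3g values. Without Gsn the other 9 markers summed to 10.2 CPM in the Fstl1 Inhba cells and 3.99 CPM in the other alveolar macrophages with LPS, and to 6.99 and 2.01 CPM with Reg3g. Decorin (Dcn) gave 123 of the 216 UMIs behind the 10.2 CPM and 102 of the 137 UMIs behind the 6.99 CPM. In cells of the same library with fibroblast markers (11 with LPS, 3 with Reg3g), these 9 genes gave 10.1 and 24.7 UMIs for each UMI of Fstl1, and in the Fstl1 Inhba cells 0.0282 and 0.0299. Fstl1 UMIs were among those that chose the Fstl1 Inhba cells, which lowers their ratio by itself, and the CPM of the 9 markers was higher in the Fstl1 Inhba cells than in the other alveolar macrophages in both libraries. The part of fibroblast RNA in the results was not tested.

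By summed CPM, markers of most other cells that the sort could hold were similar or lower. Monocyte markers summed to 472 CPM in the Fstl1 Inhba cells and 576 CPM in the other alveolar macrophages with LPS, and to 415 and 411 CPM with Reg3g. Interstitial macrophage markers stood at 260 against 319 CPM and at 180 against 207 CPM. Dendritic cell markers stood at 62.3 against 82.0 CPM and at 21.2 against 22.2 CPM, epithelial markers at 28.9 against 54.2 CPM and at 21.8 against 30.4 CPM, and T or NK cell markers at 9.25 against 15.0 CPM and at 6.84 against 9.30 CPM. Endothelial and B cell markers were lower in the Fstl1 Inhba cells in both libraries too. Neutrophil markers were lower with LPS, at 209 against 257 CPM, and higher with Reg3g, at 400 against 328 CPM. Mesothelial markers summed to 1.08 against 0.114 CPM with LPS and 0.357 against 0.459 CPM with Reg3g. Counted per cell, at least 3 monocyte markers were found in 10.9% of the Fstl1 Inhba cells and 9.84% of the others with LPS. With Reg3g it was 10.2% and 7.69%. For interstitial macrophage markers the shares were 6.22% and 5.89%, then 5.27% and 3.76%. For neutrophil markers they were 2.93% and 2.36%, then 3.99% and 3.12%. They were also higher for dendritic cell markers and lower for T or NK cell markers. The Fstl1 Inhba cells had more UMIs per cell. The part of depth and of these markers in the results below was not tested.

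Outside alveolar macrophages the 4 genes were spread over different cells. In fibroblast-marker cells Fstl1 stood at 678 CPM with LPS and 748 CPM with Reg3g. In monocyte-marker cells Inhba stood at 28.2 and 26.3 CPM and Fstl1 at 5.27 and 2.40 CPM, and in dendritic-marker cells Palld stood at 73.9 and 61.7 CPM. Lymphoid cells, which should make neither, held 0 UMIs of Fstl1 in 123 cells with LPS and in 99 with Reg3g, and Inhba at 13.9 and 13 CPM (4 UMIs each).

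The first question is how large the Fstl1 Inhba population was in each group. Of the non-cycling alveolar macrophages, 2863 of 5954 (48.1%, 46.8 to 49.4) met the rule with LPS and 2105 of 4602 (45.7%, 44.3 to 47.2) with LPS and Reg3g. With PBS 31 of 3737 did (0.830%, 0.564 to 1.18). The state was thus rare with PBS and common in both LPS libraries. Since a minimum of UMIs admits deep cells more readily, the share was repeated at matched depth. The Fstl1 Inhba cells had a median of 7054 UMIs against 5473 in the other alveolar macrophages with LPS, and 8990 against 6646 with Reg3g. With the 4 genes counted in 2000 randomly drawn UMIs per cell, 24.0% (22.9 to 25.1) of the cells with LPS, 19.8% (18.7 to 21.0) with Reg3g and 0.109% (0.0297 to 0.279) with PBS had at least 2. In cells of 5000 to 10000 UMIs the shares were 53.8% (52.1 to 55.5), 45.9% (44.0 to 47.9) and 0.600%. At matched depth the share was lower in the Reg3g library than in the LPS library. The difference was 1.21-fold in the first case and 1.17-fold in the second. The counting intervals do not overlap, but cells are no replicates, so a difference between the treatments was not tested. On all UMIs the order depended on Fstl1: with Fstl1 taken out of the rule the share was 37.8% with LPS and 38.2% with Reg3g, and with Inhba taken out it was 28.6% and 25.2%. The order without Fstl1 was not examined at matched depth.

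**Figure D1:**
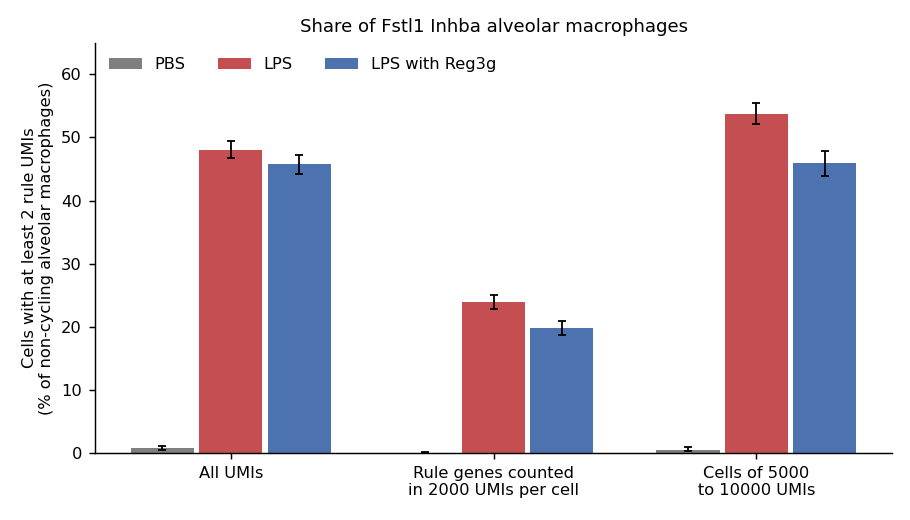
Bars show the percentage of non-cycling alveolar macrophages with at least 2 summed UMIs of Fstl1, Inhba, Palld and Creb3l1 in each of the 3 libraries, on all UMIs, with the 4 genes counted in 2000 UMIs per cell, and in cells of 5000 to 10000 UMIs. Error bars are exact 95% intervals of counting; the PBS bars stay below 1%, and the LPS bar is 24.0% and the Reg3g bar 19.8% at 2000 UMIs.

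The rule cut through a continuous range rather than between separate groups of cells. The sum of the 4 genes was 0 in 2128 cells with LPS and 1785 with Reg3g, and 1 in 963 and 712 cells just outside the threshold. It was 2 in 590 and 389 cells just inside it, 3 to 5 in 974 and 749, 6 to 11 in 849 and 595, and 12 or more in 450 and 372. The median of the Fstl1 Inhba cells was 5 UMIs in both libraries. Among cycling alveolar macrophages, which the rule leaves out, 77 of 185 with LPS, 63 of 187 with Reg3g and 4 of 243 with PBS also had at least 2 UMIs.

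The secreted factors come first among the genes that defined the cells. These values describe the choice and carry no test. Inhba stood at 428 CPM in the Fstl1 Inhba cells and 28.6 CPM in the other alveolar macrophages with LPS, at 434 and 22.7 CPM with Reg3g, and at 2.56 CPM in alveolar macrophages with PBS. Fstl1 stood at 361 and 9.80 CPM with LPS, at 234 and 7.24 CPM with Reg3g, and at 1.75 CPM with PBS. Both genes were therefore low in PBS cells, and the other alveolar macrophages lay between, at levels that the rule capped at 1 UMI per cell. Inhba had a UMI in 76.2% of the cells with LPS and 80.4% with Reg3g, and Fstl1 in 52.1% and 45.4%. Both genes were unevenly spread, since the 10% of cells with most held 48.1% and 52.3% of all Fstl1 UMIs, and 40.0% and 39.8% of all Inhba UMIs.

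The structural and transcription factor genes were lower. Palld stood at 85.2 and 76.3 CPM in the Fstl1 Inhba cells of the LPS and the Reg3g library, at 8.94 and 5.63 CPM in the other alveolar macrophages, and at 1.62 CPM with PBS. Creb3l1 stood at 44.8 and 35.5 CPM, at 7.52 and 5.34 CPM, and at 3.27 CPM with PBS. Palld had a UMI in 34.3% and 33.7% of the Fstl1 Inhba cells, and Creb3l1 in 24.6% of them in each library. Most cells had UMIs of few of the 4 genes: with LPS 1023 cells had 1 of the 4, 1286 had 2, 452 had 3 and 102 had all 4, and with Reg3g 833, 853, 340 and 79 cells did.

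The 4 genes met in the same cells somewhat more often than the product of their frequencies. After thinning to 2000 UMIs, Fstl1 was seen in 18% and Inhba in 27.0% of the 5701 non-cycling alveolar macrophages with LPS, and both in 6.61% against a product of 4.87%, a ratio of 1.36. With Reg3g the ratio was 1.32. Over the 6 pairs of the 4 genes and both libraries it lay between 1.30 and 1.87. Pairs with Serpina3f, Sphk1, Ccl17, Cyp26b1, Hamp or H2-M2 covered a range around this. They went from 0.835 (Creb3l1 and Sphk1) to 2.42 (Creb3l1 and H2-M2), both with Reg3g, and Fstl1 with Sphk1 had 1.56 with LPS. Meeting in the same cells was thus not particular to the 4 genes. These ratios describe single libraries in which all cells share the same depth.

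The other markers given for the state were not part of the rule. Serpina3f, a serine protease inhibitor, stood at 91.8 CPM in the Fstl1 Inhba cells and 57.1 CPM in the other alveolar macrophages with LPS (log2 ratio 0.68, 0.57 to 0.80), and at 71.4 and 42.6 CPM with Reg3g (0.74, 0.62 to 0.88). It had 0 UMIs in PBS alveolar macrophages, so the level in the Fstl1 Inhba cells was at least 907-fold higher (LPS library) and at least 706-fold higher (Reg3g library) against a floor of 3 counts over the PBS cells. Sphk1, which makes the lipid mediator sphingosine 1-phosphate, stood at 59.1 and 31.6 CPM with LPS (0.90, 0.76 to 1.05), at 47.1 and 19.0 CPM with Reg3g (1.31, 1.13 to 1.5), and at 0.304 CPM with PBS. Both were thus also present in the other alveolar macrophages after LPS, at a lower level in each library.

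**Figure D2:**
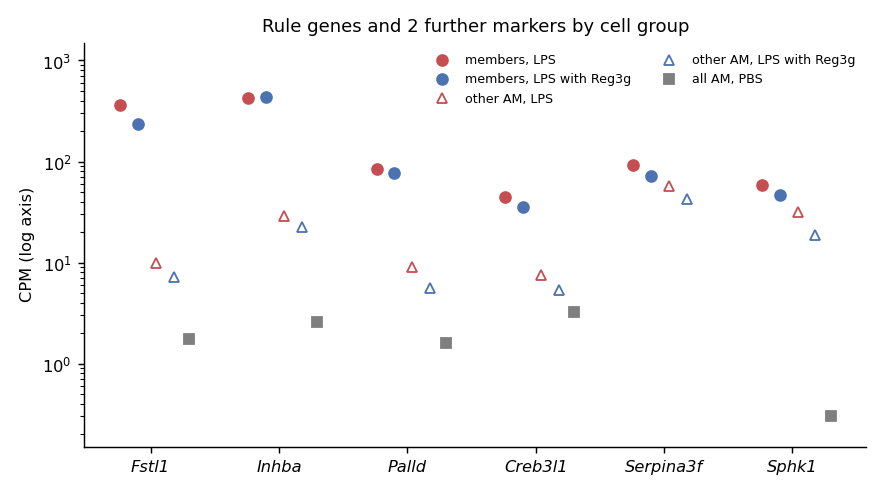
Points give the CPM (log axis) of the 4 rule genes and of Serpina3f and Sphk1 in the Fstl1 Inhba cells (circles, members), in the other alveolar macrophages (triangles) and in all non-cycling PBS alveolar macrophages (squares; Serpina3f had 0 UMIs and is not drawn). The 4 rule genes lie apart between the groups because they chose the cells, while Serpina3f and Sphk1 differ less, at 91.8 against 57.1 CPM and 59.1 against 31.6 CPM with LPS.

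The second question is what else distinguished the Fstl1 Inhba cells from their neighbours in the same library. Genes higher in them included the chemokines Ccl17, Ccl5 and Cxcl3 and the interferon-inducible Gbp2, and genes lower in them included Fabp1, Krt19 and Ear2. These 3 are typical of alveolar macrophages and are among the 8 lower of 29 measured identity genes, of which 6 had log2 ratios above 0 in both libraries. Of 7064 genes measured with at least 10 CPM in the higher group of cells in both libraries, 60 were at least 1.5-fold higher in both (0.849%) and 135 at least 1.5-fold lower in both (1.91%). In the LPS library alone 62 were higher (0.878%) and 155 lower (2.19%), and in the Reg3g library 121 (1.71%) and 268 (3.79%). The 60 were 96.8% of those called higher with LPS and 49.6% of those called higher with Reg3g, and the 135 were 87.1% and 50.4% of those called lower. Without Inhba in the rule 32 genes were higher and 83 lower in both libraries. Doublet scores were close, with medians of 0.0496 in the Fstl1 Inhba cells and 0.0463 in the other alveolar macrophages with LPS and 0.0524 and 0.0457 with Reg3g. The median log2 ratio of all 7064 genes was -0.05 with LPS and -0.06 with Reg3g.

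The 15 highest genes included 4 chemokines. Ccl17, which attracts Ccr4-bearing T cells, stood at 1286 CPM in the Fstl1 Inhba cells and 604 CPM in the other alveolar macrophages with LPS (log2 ratio 1.09, 1.06 to 1.12), at 823 and 350 CPM with Reg3g (1.23, 1.19 to 1.28), and at 28.0 CPM with PBS. Ccl5, which attracts T cells and monocytes, stood at 1996 and 1052 CPM with LPS, 2195 and 1029 CPM with Reg3g, and 10.7 CPM with PBS (log2 ratios 0.92 and 1.09). Cxcl3, which attracts neutrophils, stood at 2730 and 1565 CPM, 3861 and 1754 CPM, and 5.53 CPM with PBS (0.80 and 1.14). Cxcl16, a membrane-anchored chemokine and scavenger receptor, followed with log2 ratios of 0.77 and 0.84. After thinning to 2000 UMIs, Ccl17 was seen in 44.3% of the Fstl1 Inhba cells and 29.5% of the others with LPS, and in 34.9% and 17.7% with Reg3g, with 16% and 3.92% in lymphoid cells, which should lack it. Unthinned, the first 4 shares were 58.6%, 41.8%, 50.6% and 29.3%, at median depths of 7134, 5706, 9018 and 6771 UMIs, and lymphoid cells had medians of 3177 and 3748 UMIs.

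Several of the genes highest in the Fstl1 Inhba cells have other roles. H2-M2, a nonclassical MHC class I gene, stood at 59.4 and 23.8 CPM with LPS and 85.7 and 33.1 CPM with Reg3g (log2 ratios 1.32 and 1.37), and at 2.60 CPM with PBS. AA467197, also called Nmes1, stood at 398 and 183 CPM and at 403 and 143 CPM (1.12 and 1.5), with 12.5 CPM in PBS cells. Cyp26b1, which breaks down retinoic acid, stood at 222 and 113 CPM and at 218 and 85.8 CPM (0.98 and 1.35), with 0.304 CPM in PBS cells. Gbp2, an interferon-inducible GTPase, had log2 ratios of 0.97 and 1.12. The formin Fmnl2, which builds actin filaments, had 0.86 and 1.20, the carbonic anhydrase Car13 0.85 and 1.0, and the surface aminopeptidase Anpep 0.83 and 0.91. The caveolae protein Cav1 (0.78 and 0.81), the membrane protein Dcbld2 (0.76 and 0.94), the adhesion molecule Clmp (0.73 and 0.75) and the G protein subunit Gng12 (0.70 and 0.69) completed the 15 highest.

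The 10 lowest genes included Fabp1, Krt19, Ear1 and Ear2 of the alveolar macrophage identity list. Fabp1, a fatty acid binding protein, stood at 60.5 CPM in the Fstl1 Inhba cells and 156 CPM in the other alveolar macrophages with LPS (log2 ratio -1.36, -1.46 to -1.27), at 94.9 and 295 CPM with Reg3g (-1.64, -1.72 to -1.56), and at 1269 CPM with PBS. Serpinb1a, an inhibitor of neutrophil elastase, stood at 15.8 and 57.1 CPM with LPS, 16.8 and 73.9 CPM with Reg3g, and 216 CPM with PBS (-1.86 and -2.13). Krt19, a keratin of epithelial cells that alveolar macrophages also express, stood at 18.5 and 58.2 CPM, 18.5 and 76.2 CPM, and 394 CPM with PBS (-1.65 and -2.04). The secreted ribonuclease Ear2 stood at 433 and 943 CPM, 490 and 1038 CPM, and 3325 CPM with PBS (-1.12 and -1.08), and its relative Ear1 had log2 ratios of -1.08 and -1.22. Ear1 and Ear2 are near-identical copies whose reads the counting could split. Also among the 10 lowest were the immediate early transcription factor Egr1 (-1.31 and -1.85), the antibody-recycling receptor Fcgrt (-1.14 and -1.62), the phospholipid transfer protein Pltp (-1.16 and -1.35), Cdc42ep3, an effector of the GTPase Cdc42 (-1.11 and -1.43), and Niban1 (-1.0 and -1.5).

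**Figure D3:**
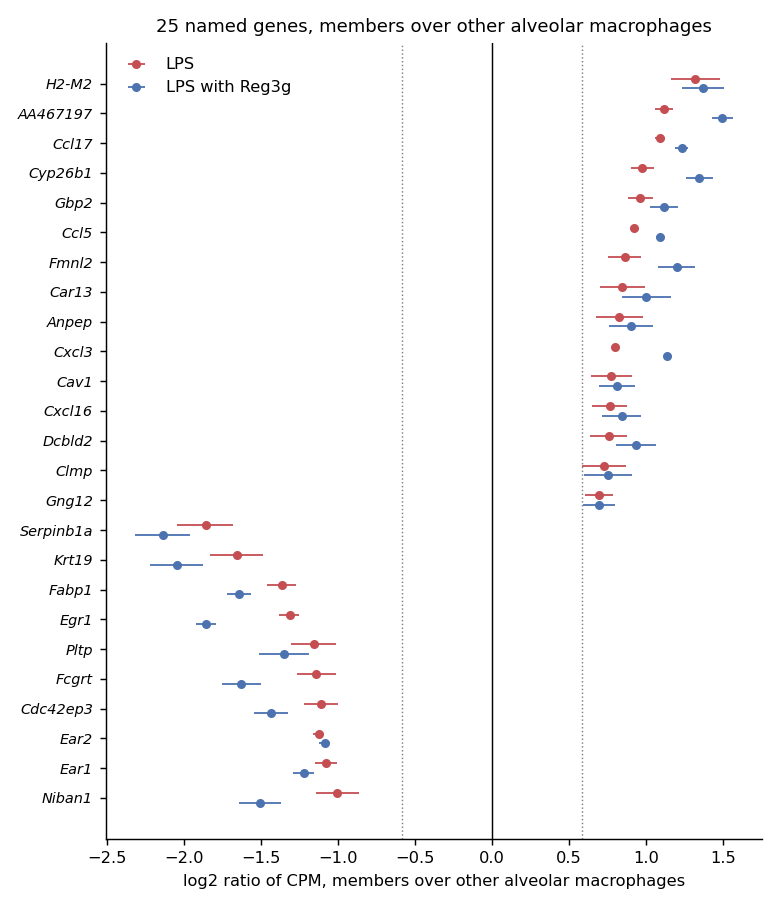
Points give the log2 ratio of CPM in the Fstl1 Inhba cells (members) over the other alveolar macrophages of the same library, with 95% counting intervals, for the 15 highest and 10 lowest genes; dotted lines mark 1.5-fold. Each of the 25 genes lies on the same side of 0 in both libraries, from -2.13 for Serpinb1a to 1.5 for AA467197, both with Reg3g.

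The genes that differed in the Reg3g library were set beside the change from PBS to LPS in the other libraries. Across all 7064 genes, 12.6% were at least 1.5-fold higher in the alveolar macrophages of the LPS library than of the PBS library, and 22% at least 1.5-fold lower. Of the 121 genes higher in the Fstl1 Inhba cells of the Reg3g library, 119 (98.3%) were higher with LPS and 0 lower. Of the 268 genes lower in these cells, 240 (89.6%) were lower with LPS and 9 (3.36%) higher. The rule chose cells by genes that were themselves low with PBS (Fstl1 at 1.75 CPM, Inhba at 2.56 CPM). Genes were also kept by their CPM in the LPS and Reg3g libraries, without regard to PBS. The counts are therefore a description and no independent check.

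Levels also followed the number of rule UMIs within cells of 5000 to 10000 UMIs. In the LPS library Ccl17 stood at 567 CPM in cells with 0 rule UMIs, 846 CPM with 1, 934 CPM with 2, 1235 CPM with 3 to 5 and 1555 CPM with 6 or more, and in the Reg3g library at 305, 394, 465, 655 and 1052 CPM. Fabp1 went the other way, with 159, 107, 81.2, 60.5 and 48.0 CPM with LPS and 391, 176, 109, 92.2 and 82.0 CPM with Reg3g. Over all 5 steps 12 of the 15 higher genes were in order with LPS and 9 with Reg3g, as were 7 and 8 of the 10 lower genes. Each of the 15 was higher with 2 UMIs than with 0 and higher with 6 or more than with 2, in both libraries. Median depth rose along the same steps, from 6764 to 7461 UMIs with LPS and from 6990 to 8310 UMIs with Reg3g, and its part was not tested. The 25 genes were themselves chosen by comparing all cells with at least 2 rule UMIs with all cells below 2. The cells of every step took part in that choice, so the steps are a description and no independent check.

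**Figure D4:**
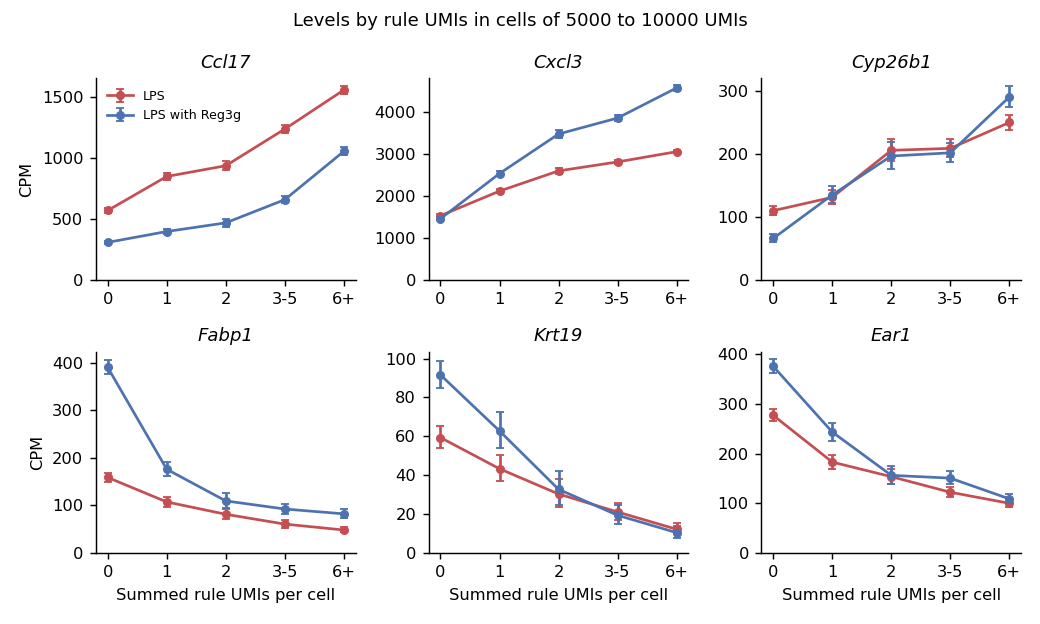
Each panel plots the CPM of 1 gene against the summed UMIs of the 4 rule genes per cell, in cells of 5000 to 10000 UMIs, for the LPS and the LPS with Reg3g library, with 95% counting intervals. Ccl17, Cxcl3 and Cyp26b1 are higher and Fabp1, Krt19 and Ear1 lower at each further step in both libraries.

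Sequence upstream of the start of these genes was read from RefSeq (GRCm38.p6) for the higher genes and the genes of the rule. The table held 13 windows of 11 of the 15 higher genes and 12 windows of Inhba, Fstl1, Palld, Serpina3f and Sphk1. In the 250 bases before the start, 4 motifs were searched on both strands: TGANTCA, bound by AP-1; TTCNNNGAA, bound by STAT factors; GGGANTTTC, part of the site of NF-kB; and GAAANNGAA, bound by interferon regulatory factors. Capitals mark the matches in the last 130 bases before the start of 4 genes, Cxcl3 (chr5:90785971-90786100), Ccl17 (chr8:94810323-94810452), Serpina3f (chr12:104214414-104214543) and Inhba (chr13:16011721-16011850), all on the plus strand. They are shown for 2 chemokines among the higher genes, a marker and a rule gene.
Cxcl3: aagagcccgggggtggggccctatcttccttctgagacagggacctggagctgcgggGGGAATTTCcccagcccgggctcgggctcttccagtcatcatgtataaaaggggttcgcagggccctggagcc
Ccl17: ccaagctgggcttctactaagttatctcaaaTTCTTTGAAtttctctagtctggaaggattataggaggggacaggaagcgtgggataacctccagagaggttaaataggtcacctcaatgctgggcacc
Serpina3f: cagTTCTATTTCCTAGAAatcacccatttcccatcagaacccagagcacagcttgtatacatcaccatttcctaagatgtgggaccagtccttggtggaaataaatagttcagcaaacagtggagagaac
Inhba: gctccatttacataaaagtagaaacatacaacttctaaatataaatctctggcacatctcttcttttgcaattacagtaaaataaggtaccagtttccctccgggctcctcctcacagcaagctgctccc
The GGGANTTTC match of Cxcl3 begins 73 bases before the start and the TTCNNNGAA match of Ccl17 99 bases before it, and neither overlaps another of the 4 motifs. In Serpina3f GAAANNGAA, read on the minus strand, begins 127 bases and TTCNNNGAA 121 bases before the start, and these matches overlap. Serpina3f has another annotated start further downstream. The same matches begin 216 and 210 bases before that start, outside its last 130 bases. The Inhba window held 0 of the 4 motifs. Of the 32851 windows in all, 0.941% held GGGANTTTC, 7.02% TTCNNNGAA, 6.75% TGANTCA and 7.13% GAAANNGAA. Of the 13 windows of the higher genes 2 held TGANTCA (15.4%) and 1 each of the other motifs (7.69%). Of the 12 windows of the rule genes, Serpina3f and Sphk1, 5 held TTCNNNGAA (41.7%), 4 GAAANNGAA (33.3%), 3 TGANTCA (25%) and 2 GGGANTTTC (16.7%). Several of these windows overlap and share the same matches. Of 7 windows of the lower genes 2 held GAAANNGAA (28.6%), those of Ear1 and Ear2, and 0 held another of the motifs. Gbp2 held TGANTCA and GAAANNGAA, at 102 and 58 bases, and AA467197 held TGANTCA. These are matches of letters in this window and say nothing of binding.

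Gene lists placed the differences in pathways, beginning with the ligands' own pathway. For scale, 0.849% of all 7064 genes were at least 1.5-fold higher in both libraries and 1.91% lower, so 0 genes past it in a short list says little. Of 12 measured genes of activin, follistatin and TGF-beta signalling other than the rule genes, 0 were at least 1.5-fold higher in both libraries and 1 was lower, Gdf15, a stress-induced ligand of the family (33.4 and 66.3 CPM with LPS, 24.4 and 90.5 CPM with Reg3g, log2 ratios -0.99 and -1.89). The list's median was -0.10 with LPS and -0.15 with Reg3g, against -0.05 and -0.06 over all genes. The signalling inhibitors Ski (-0.36 and -0.59) and Skil (-0.30 and -0.57) were below 0 as well. Of 12 sphingosine 1-phosphate genes Sphk1 alone passed 1.5-fold, and the lyase that degrades the lipid, Sgpl1, stood at 172 against 138 CPM and 169 against 134 CPM (0.32 and 0.33). Of 26 genes of the endoplasmic reticulum and secretory stress response, where Creb3l1 acts, 0 passed in either direction, with medians of -0.00 and 0.01. Of 25 actin cytoskeleton genes 0 were higher and Cdc42ep3 was lower.

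Several inflammatory lists had more genes higher than lower in the Fstl1 Inhba cells. Among 15 chemokines that were measured, 5 passed 1.5-fold upward in both libraries and 0 downward (medians 0.21 and 0.40), including Cxcl9, which attracts Cxcr3-bearing T cells (48.1 and 23 CPM with LPS, 28.0 and 10.3 CPM with Reg3g). Of 29 interferon response genes 5 were higher and 0 lower (medians 0.36 and 0.58), and 26 lay above 0 in both libraries, as did 1877 of all 7064 genes. Over all genes 38.4% lay above 0 with LPS and 38% with Reg3g. Besides Gbp2 these were the antiviral genes Rsad2 (0.99 and 1.37), Ifit1 (0.68 and 1.31) and Oasl1 (0.62 and 0.89) and the GTPase Gbp3 (0.78 and 0.92). In the list of 31 NF-kB targets and LPS-inducible genes, 4 were higher and 0 lower (medians 0.06 and 0.15): Gbp5 (1.09 and 1.08), Ptges, the enzyme that makes prostaglandin E2 (0.68 and 0.81), Acod1, which makes itaconate (0.66 and 1.19), and Malt1, a signalling protease (0.60 and 0.75). Of 18 MHC class I presentation genes 0 passed 1.5-fold, and 17 lay above 0 in both libraries (medians 0.24 and 0.32), led by H2-T23 (0.49 and 0.51).

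Cytokines were divided. Tnf stood at 190 CPM in the Fstl1 Inhba cells and 325 CPM in the other alveolar macrophages with LPS, at 185 and 391 CPM with Reg3g, and at 35.9 CPM with PBS (log2 ratios -0.78 and -1.08). Il18 was lower too (-0.78 and -0.93). Il1b stood at 1503 and 1217 CPM with LPS and at 1528 and 877 CPM with Reg3g (0.30 and 0.80), and Il1a had log2 ratios of 0.29 and 0.61. Of 7 measured cytokines 0 were higher and Tnf and Il18 were lower in both libraries. Tnf was thus an LPS-raised gene that was lower in the Fstl1 Inhba cells. Of 3 growth factors the epidermal growth factor receptor ligand Ereg was lower (-0.68 and -1.36).

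Other lists had more genes lower than higher, as did all 7064 genes, with 135 lower (1.91%) and 60 higher (0.849%). Of all genes 3547 lay below 0 in both libraries and 1877 above. Of 29 alveolar macrophage identity genes other than those of the rule, 8 were lower and 0 higher (medians -0.18 and -0.25), and 18 lay below 0 and 6 above 0 in both libraries. Among the 8 was the sialic acid receptor Siglecf (-1.27 and -1.54). Of 25 immediate early and dissociation response genes 4 were lower and 0 higher (medians -0.26 and -0.43), including Jun (-0.61 and -1.03); this list also reports on handling of the tissue, and its part in the other differences was not tested. Of 13 prostanoid and leukotriene genes 3 were lower, all of the leukotriene branch, namely the 5-lipoxygenase Alox5 (6.60 and 18.2 CPM with LPS, log2 ratios -1.46 and -1.85), Ltc4s (-0.85 and -1.17) and Alox5ap (-0.77 and -0.78), and Ptges was higher. Of 34 lipid handling genes 3 were lower and 0 higher, Pltp, the phosphatidate phosphatase Lpin1 (-0.67 and -1.05) and the cholesterol exporter Abca1 (-0.63 and -0.74). Of 17 cholesterol biosynthesis genes 0 passed 1.5-fold and 12 lay above 0 in both libraries (medians 0.26 and 0.30), led by Sqle (0.44 and 0.48).

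The remaining lists had few genes past 1.5-fold, as did all 7064 genes (0.849% higher and 1.91% lower). Of 23 phagocytosis and scavenging genes 2 were lower, the complement receptor C5ar1 (-0.91 and -1.38) and the antibody receptor Fcgr4 (-0.62 and -0.77). Of 15 alternative activation genes, with medians of -0.25 and -0.39, 1 was higher, the cholesterol 25-hydroxylase Ch25h (0.62 and 0.73), and 3 were lower, Spp1 (-0.69 and -0.66), Trem2 (-0.65 and -1.13) and fibronectin Fn1 (-0.61 and -0.83). Of 21 integrin and adhesion genes 1 was higher, the proteoglycan Sdc4 (815 and 514 CPM with LPS), and 3 were lower, Fn1, the tetraspanin Cd81 (-0.66 and -0.73) and the proteoglycan Sdc3 (-0.59 and -0.68). Of 24 survival and inflammasome genes 1 was higher, the death receptor Fas (0.61 and 0.68), and 2 were lower, Il18 and the death-promoting Bcl2l11 (-0.72 and -1.15). Of 6 serine protease inhibitors Serpina3f was higher and Serpinb1a lower, and of 6 retinoic acid genes Cyp26b1 was higher (list medians -0.17 and -0.32). Among 9 matrix proteases and their inhibitors 0 passed in either direction, and the same held for 21 glycolysis, 27 oxidative stress, 26 oxidative phosphorylation, 30 autophagy and lysosome and 9 MHC class II genes, the last with medians of -0.16 and -0.43.

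The third question is whether cells that carried Fstl1 differed from those that carried Inhba. With LPS 486 of the cells (17.0%) had at least 2 Fstl1 UMIs and no Inhba, 1059 (37.0%) at least 2 Inhba UMIs and no Fstl1, and 940 (32.8%) both genes. With Reg3g these were 271 (12.9%), 912 (43.3%) and 650 (30.9%). Neither gene was seen in 131 of the cells (4.58%) with LPS and 107 (5.08%) with Reg3g. Median depth was 6862 and 6952 UMIs in the first 2 groups with LPS and 8394 and 8887 with Reg3g. Of 6968 other genes 8 were at least 1.5-fold higher in the cells with Fstl1 in both libraries (0.115%), and 18 in the cells with Inhba (0.258%). These cells were divided after earlier results were seen.

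Of 8 genes described on the Inhba side, from 50 CPM, all but Clec7a passed 1.5-fold in both libraries. Il1b, the interleukin 1 beta precursor, stood at 1729 CPM in the cells with Inhba and 1071 CPM in those with Fstl1 in the LPS library (log2 ratio of Fstl1 over Inhba cells -0.69, -0.74 to -0.64), and at 1734 and 951 CPM with Reg3g (-0.87, -0.93 to -0.80). In the other alveolar macrophages it stood at 1217 and 877 CPM. Cxcl1, which recruits neutrophils, stood at 272 and 158 CPM with LPS and at 140 and 68.2 CPM with Reg3g (-0.78 and -1.04). AA467197 stood at 453 and 266 CPM and at 438 and 221 CPM (-0.77 and -0.98), against 183 and 143 CPM in the other alveolar macrophages. The transcription factor Prdm1 (-0.87 and -0.83), the zinc finger protein Hivep3 (-0.86 and -0.81), the fungal pattern receptors Clec4n (-0.66 and -0.94) and Clec7a (-0.58 and -1.01), and Clmp (-0.61 and -0.78) were higher in the cells with Inhba as well. The other alveolar macrophages stood above both kinds of cell for Clec4n (201 and 303 CPM), Clec7a (153 and 279 CPM) and Prdm1 (72.3 and 80.3 CPM). With Reg3g they did so for Cxcl1 too (166 CPM). Il1b, AA467197, Hivep3 and Clmp were highest in the cells with Inhba in both libraries.

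On the Fstl1 side 0 of the 8 genes described, from 50 CPM, passed 1.5-fold in both libraries, so these are not the 8 counted above. Cited2, a transcriptional coregulator, stood at 67.2 CPM in the cells with Fstl1 and 41.9 CPM in those with Inhba with LPS (0.68, 0.43 to 0.93), and at 63.5 and 43.4 CPM with Reg3g (0.55, 0.26 to 0.83). Ly6i, a surface protein of the Ly6 family, stood at 119 and 82.1 CPM and at 197 and 96.0 CPM (0.53 and 1.03). Fabp4, a fatty acid binding protein, stood at 1262 and 921 CPM and at 1255 and 789 CPM (0.45 and 0.67). The selenium carrier Selenop (0.45 and 0.69), Serpina3g (0.41 and 0.57), Serpina3f (0.51 and 0.38), the motor protein Myo10 (0.36 and 0.54) and the GTPase Rhob (0.43 and 0.36) followed. The other alveolar macrophages stood above the cells with Fstl1 for Selenop (88.1 and 100 CPM) and Rhob (138 and 105 CPM), and with Reg3g for Cited2 (68.3 CPM). They stood below them for Ly6i, Fabp4, Serpina3g, Serpina3f and Myo10. Palld (0.19 and 0.44) and Creb3l1 (-0.07 and -0.08) differed less between these cells than Fstl1 and Inhba, which divided them. Serpina3f and Serpina3g belong to a family of close copies whose reads the counting could split.

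The fourth question, named in the series' title, concerns Reg3g: how did the Fstl1 Inhba cells differ when it was given with LPS? The genes highest with Reg3g included Clec7a, Anxa1 and Clec4n, and the lowest included Cxcl13, Scd1 and Hspa1a. Of 7109 genes measured in these cells, 36 were at least 1.5-fold higher with Reg3g than with LPS alone (0.506%) and 75 lower (1.06%). In the other alveolar macrophages 46 of 7323 were higher (0.628%) and 89 lower (1.22%). The median of all genes was 0.02 in the Fstl1 Inhba cells and 0.03 in the others. The counts differed under other treatments of depth, which also change the cells chosen and the UMIs per gene, and the cause was not tested: with the rule applied to 2000 UMIs per cell 356 genes were higher and 306 lower, and in cells of 5000 to 10000 UMIs 57 and 104.

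The defining genes chose the cells, so their values are a description. Fstl1 fell by 0.63 on the log2 scale (-0.68 to -0.57) between the libraries, from 361 to 234 CPM, and the Inhba log2 ratio was 0.02 (-0.02 to 0.06), with 428 and 434 CPM. After thinning, Fstl1 was seen in 34.6% of the Fstl1 Inhba cells with LPS and 27.4% with Reg3g, and Inhba in 48.2% and 48.1%. Lymphoid cells showed 0 of 50 and 0 of 51 cells with Fstl1, which allows up to 7.11% and 6.98% (exact interval). Palld (-0.16), Creb3l1 (-0.33), Serpina3f (-0.36) and Sphk1 (-0.33) had lower CPM with Reg3g, none of them past 1.5-fold. The make-up of the state thus differed between the libraries, with Inhba giving 46.6% of the 4 genes' UMIs with LPS and 55.6% with Reg3g, and Fstl1 39.3% and 30.0%.

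Of the named genes Clec7a had the highest ratio with Reg3g. Clec7a, the beta-glucan receptor dectin 1, stood at 120 CPM in the Fstl1 Inhba cells with LPS and 225 CPM with Reg3g (log2 ratio 0.91, 0.84 to 0.98), and at 153 and 279 CPM in the other alveolar macrophages (0.87). With PBS it stood at 1007 CPM. Clec4n, the mannan receptor dectin 2, stood at 128 and 204 CPM (0.67) and in the others at 201 and 303 CPM (0.59). Anxa1, which restrains inflammation, stood at 63.2 and 100.4 CPM (0.67), and Fabp1 at 60.5 and 94.9 CPM (0.65), where the others had a log2 ratio of 0.92. The kinase Prkcd stood at 86.1 and 134 CPM (0.64, 0.56 to 0.73) in the Fstl1 Inhba cells and at 82.1 and 104 CPM (0.34, 0.24 to 0.44) in the others. The RNA-binding protein Ybx3 (0.58), the metalloprotease Mmp19 (0.57) and the transcription factor Tfec (0.55) completed the 8 highest.

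Of 33 lipid handling genes 3 were lower, Scd1, Hilpda and Apoe, 1 was higher, G0s2 (0.68, at a level that other cells could have carried over), and 18 lay above 0 (median 0.01). Scd1, a fatty acid desaturase, stood at 52.1 CPM in the Fstl1 Inhba cells with LPS and 19.2 CPM with Reg3g (-1.44, -1.61 to -1.27), and at 44.7 and 21.0 CPM in the other alveolar macrophages (-1.09). Hilpda, a lipid droplet protein induced by hypoxia, stood at 248 and 149 CPM (-0.74), and in the others at 203 and 116 CPM (-0.81). Apoe, the lipid carrier, stood at 126 and 65.5 CPM (-0.95, or -0.88 without the 1 cell in each library that held most), but with the whole rule applied to 2000 UMIs per cell its log2 ratio was 0.021. Hamp, the iron hormone hepcidin, stood at 53.7 and 26.3 CPM (-1.03) in the Fstl1 Inhba cells and at 16.6 and 9.53 CPM in the others, with 0.0337 CPM in PBS cells. The heat shock gene Hspa1a stood at 77.0 and 37.6 CPM (-1.03).

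Cxcl1 and Gadd45b differed more between the libraries in the Fstl1 Inhba cells than in the others. Cxcl1 stood at 217 and 126 CPM (-0.78, -0.85 to -0.71) in the Fstl1 Inhba cells and at 200.5 and 166 CPM (-0.27, -0.34 to -0.20) in the others. Gadd45b, a stress and growth arrest gene, stood at 184 and 112 CPM (-0.71, -0.79 to -0.64) and at 187 and 179 CPM (-0.07, -0.14 to 0.01). The counting intervals of the pairs do not overlap, and with 1 library per group the difference between the pairs has no replicate check. Cxcl13, a chemokine for B cells, stood at 58.7 and 17.3 CPM (-1.77), but 1 cell held 29.2% of its UMIs with LPS and 1 cell 24.6% with Reg3g, and without them the log2 ratio was -1.67. Cxcl13 was seen in 153 of the 2863 cells with LPS and in 173 of the 2105 cells with Reg3g. A larger share of cells thus held it with Reg3g, at a higher median depth (7054 and 8990 UMIs), although its CPM was lower.

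**Figure D5:**
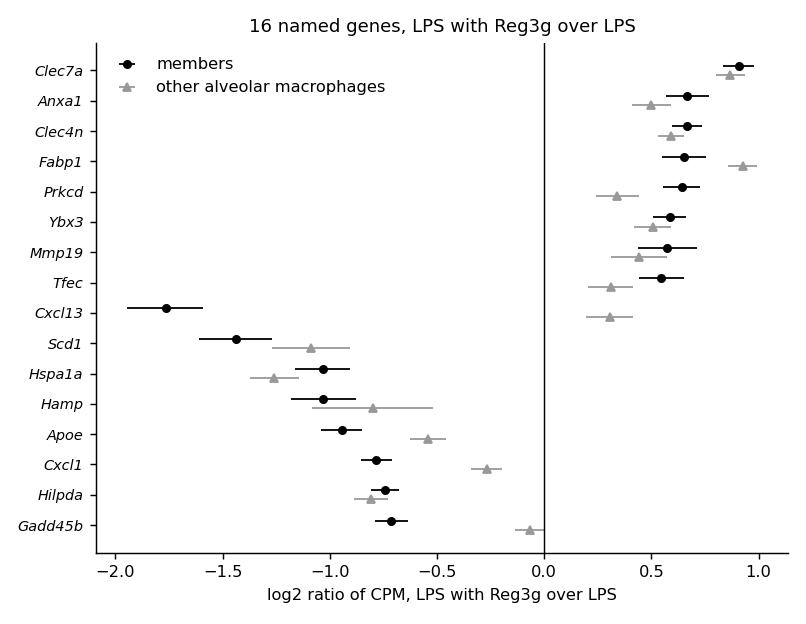
Points give the log2 ratio of CPM with LPS and Reg3g over LPS alone in the Fstl1 Inhba cells (black circles, members) and in the other alveolar macrophages (grey triangles), with 95% counting intervals, for the 8 highest and 8 lowest named genes of the Fstl1 Inhba cells. For 15 of the 16 genes both kinds of cell lie on the same side of 0; Cxcl13, at -1.77 and 0.31, is the exception.

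Lists set these genes in groups. Among 18 chemokines measured in the Fstl1 Inhba cells 0 were at least 1.5-fold higher with Reg3g and 5 lower: Cxcl13, Cxcl1, Ccl17 (-0.64), Cxcl9 (-0.78) and Ccl22 (14.4 and 4.75 CPM, -1.60), the last at a level that other cells could have carried over. The median was -0.14 in the Fstl1 Inhba cells and -0.17 in the other alveolar macrophages, against 0.02 and 0.03 for all genes. In the others the log2 ratio was -0.79 for Ccl17, -1.15 for Cxcl9, -0.27 for Cxcl1 and 0.31 for Cxcl13. In the list of 32 NF-kB targets and LPS-inducible genes, 4 were lower and 0 higher (median -0.17, and -0.16 in the other alveolar macrophages). The 4 were Nfkbid, an inhibitor of NF-kB (44.5 and 22.4 CPM, -0.99), the acute phase gene Saa3 (1084 and 698 CPM, -0.64), Ier3 (-0.61) and the cyclooxygenase Ptgs2 (13 and 6.74 CPM, -0.95). Of these 32 genes 24 lay below 0, and of all 7109 genes 46.1% did. Of 29 interferon response genes 0 passed 1.5-fold and 22 lay below 0 (median -0.17, and -0.30 in the other alveolar macrophages).

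Immediate early and MHC class II genes were measured as well. Of all 7109 genes 0.506% were at least 1.5-fold higher with Reg3g and 1.06% lower, and 3829 lay above 0 and 3280 below. Of 25 immediate early and dissociation genes 5 were lower and 0 higher, with a median of -0.32 in the Fstl1 Inhba cells and -0.05 in the others. These were Fos (428 and 271 CPM, -0.66), Fosl1 (-0.60), the heat shock genes Hspa1a and Hspa1b (-0.62) and the transcription factor Klf2 (-0.65). All 9 measured MHC class II and co-stimulation genes lay below 0 (median -0.40, and -0.22 in the others), and 3 passed 1.5-fold, H2-Eb1 (117 and 45.5 CPM, -1.36), H2-Aa (-0.90) and the invariant chain Cd74 (-0.79). Of these 9 genes 5 could have been carried over from other cells. The dendritic cell markers in the Fstl1 Inhba cells summed to 62.3 CPM with LPS and 21.2 CPM with Reg3g, and their part was not tested. Of 28 alveolar macrophage identity genes Fabp1 and Spp1 (24.4 and 44.4 CPM, 0.86) were higher and 0 lower (median 0.14, and 0.22 in the others). Of 23 phagocytosis genes Clec7a and Clec4n were higher and 0 lower. Of 26 survival and inflammasome genes 2 were lower, Bcl2l11 (-0.67) and the inflammasome sensor Nlrp3 (159 and 103 CPM, -0.63). Of 12 activin and TGF-beta genes other than the rule genes 0 passed 1.5-fold in either direction, and the same held for 12 sphingosine 1-phosphate, 18 MHC class I (median -0.00) and 18 cholesterol biosynthesis genes. Of 26 endoplasmic reticulum stress genes 0 passed and 17 lay above 0 (median 0.22, and 0.20 in the others).

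Reg3g itself and Extl3, which has been described as a receptor for Reg3 proteins, were looked up in the Fstl1 Inhba cells. Reg3g RNA stood at 0.330 CPM with LPS and 0.102 CPM with Reg3g, too low to compare. Extl3 stood at 15.9 CPM with LPS and 17.9 CPM with Reg3g, and at 15.0 and 15.5 CPM in the other alveolar macrophages.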

How the data were processed

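The authors deposited UMI counts for each gene in each barcode, from Cell Ranger 9.0.1 per the file headers. Among other tools the submitters' processing notes list Seurat 4.4.0 and bcl2fastq 5.0.1, with mm10 as the build; which gene annotation was used is not given. Of 55357 features 52081 (94.1%) matched GENCODE M21 by identifier, used for positions only. Cells, the 27 gene lists and the tests were chosen with earlier results of these data known. UMIs were summed per group of cells and library and divided by the total, giving counts per 1000000 (CPM). Shares have exact Clopper-Pearson, CPM exact Poisson and log2 ratios exact conditional binomial 95% intervals. A gene was measured at 10 CPM in the higher group and called at 1.5-fold; with 1 library per group no test was possible, and a count of 0 was set to 3 for ratios. Thinning drew 2000 UMIs per cell and left out 45 Fstl1 Inhba cells with LPS and 18 with Reg3g. It also left out 208 and 73 of the other alveolar macrophages, and the part of this unequal loss in the thinned shares was not tested. Doublets were not removed; an alternative took out the highest Scrublet scores (scanpy 1.11.5), 0.4% of barcodes per 1000 barcodes.

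Named genes are the 4 rule genes, Serpina3f and Sphk1, then, from 50 CPM, the 15 highest and 10 lowest against the other alveolar macrophages by the less extreme ratio of the libraries, the 8 highest and 8 lowest between libraries, and up to 4 members of each list. The rankings skip ribosomal, mitochondrial, immunoglobulin, haemoglobin and predicted genes and those under 10% of their level in lymphoid, neutrophil, monocyte or dendritic-marker cells. Genes named to complete a count (such as Oasl1) and those compared between Fstl1 and Inhba cells were chosen after their values were seen. Of the listed symbols 5 matched no feature name and were not used. In simulated counts the true ratio fell inside the interval for 95.4% of unchanged genes between Fstl1 Inhba and other cells (7064 genes) and 95.2% between libraries (7109 genes). Python 3.11.15 with numpy 2.4.6, scipy 1.17.1 and pandas 2.3.3 was used.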

Additional observations from a re-analysis of the deposited data

Results flagged for a closer look

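Cells outside the alveolar macrophage gate, which the comparisons above do not use, also carried at least 2 UMIs of the 4 rule genes more often after LPS than in the PBS control library. With LPS these were 283 of 7741 cells (3.66%, 3.25 to 4.10), with LPS and Reg3g 177 of 4880 (3.63%, 3.12 to 4.19), and with PBS 64 of 4152 (1.54%, 1.19 to 1.96). The median depth of the cells with at least 2 UMIs was 4463, 5405 and 7885 UMIs in the same order. The depth of all cells outside the gate is not given here. Monocyte-marker cells made up 102, 75 and 6 of the cells with at least 2 UMIs, and fibroblast- or mesothelial-marker cells 8, 3 and 3. These counts stand without the total of such cells in each library, so they do not show whether the share among them differed. A further 38, 21 and 5 cells carried 3 alveolar macrophage markers, 1 short of the gate.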

How the results depend on the processing

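No paired analysis was possible because each group is 1 library. Each of 62 named log2 ratios against the other alveolar macrophages kept its sign under all alternatives run, and all 62 were past 1.5-fold. Of these, 53 stayed past it without Inhba in the rule, 56 with rule genes thinned and 57 with the whole rule thinned. The 62 include the 4 rule genes and the 25 genes ranked by this same ratio. Their sign and size were thus largely set by the choice, and the counts are no independent check. Of 22 named log2 ratios between libraries 1 changed sign under each of 4 alternatives, Inhba without the highest doublet scores and without Fstl1 in the rule, Palld without Inhba and Apoe under whole-rule thinning. Of 14 past 1.5-fold, 11 stayed past it without Inhba and 11 with rule genes thinned. Under thinning of the whole rule the share of Fstl1 Inhba cells was 24.2% with LPS and 19.5% with Reg3g (log2 ratio -0.31), and with the rule genes alone thinned 24.0% and 19.8% (-0.27). In cells of 5000 to 10000 UMIs it was 53.8% with LPS (log2 ratio -0.23). From 1 rule UMI the shares were 64.3% and 61.2%, from 3 UMIs 38.2% and 37.3%, without Fstl1 37.8% and 38.2% (log2 ratio reversed to 0.017), without Inhba 28.6% and 25.2% (-0.18), without Palld 44.3% and 42.0%, and without Creb3l1 45.8% and 43.7%. With at least 3 alveolar macrophage markers they were 45.8% and 43.9%, with at least 6 they were 50.4% and 47.5%, and under the stricter cell filter the LPS share was 49.7%. Genes at least 1.5-fold higher and lower in the Fstl1 Inhba cells numbered 32 and 83 without Inhba in the rule and 26 and 44 from 50 CPM, and 204 were lower with at least 3 markers. Genes higher and lower with Reg3g numbered 356 and 306 under whole-rule thinning, 362 and 292 with rule genes thinned, 74 and 114 from 5 CPM and 7 and 24 from 50 CPM, and 57 were higher in cells of 5000 to 10000 UMIs. The Apoe log2 ratio between libraries was 0.021 under whole-rule thinning. The cause of these changes was not tested. Alternatives with rule genes thinned, the Fstl1 and Inhba division and the steps of rule UMIs were chosen after the data were seen.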
